A study of Mus musculus with 7 samples.

Results

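The colony stimulating factors are secreted growth factors of the myeloid lineage, and 8 of their genes were followed here across the cells of the mouse seminal vesicle, the male accessory gland that makes most of the fluid of the ejaculate. The genes were the ligands *Csf1* (macrophage colony stimulating factor), *Il34* (interleukin 34), *Csf2* (granulocyte-macrophage colony stimulating factor) and *Csf3* (granulocyte colony stimulating factor), and the receptor genes *Csf1r*, *Csf2ra*, *Csf2rb* and *Csf3r*. They were chosen by name, as 8 of the 30406 genes that all matrices of the series share, and their unique molecular identifiers (UMIs, counts of single captured RNA molecules) were read in each of 23 male mice and in 6 classes of cells. A cell was put in a class by the UMIs of 1 or a few genes: *Cd3e* for T cells, *C1qa* for macrophages, *Pecam1* for endothelial cells, *Col1a1* and *Col1a2* for fibroblasts, *Krt5* and *Krt14* for basal epithelial cells, and at least 20% of UMIs from 7 seminal vesicle secretory protein (Svs) genes for secretory cells. None of the 8 genes was used to choose cells.

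As background, CSF1 and IL34 are different proteins that bind the same tyrosine kinase receptor, CSF1R, on which most tissue macrophages depend for survival. CSF2 is recognised by its own alpha chain, CSF2RA, and signals through a beta chain, CSF2RB, that is shared with the receptors for interleukin 3 and interleukin 5. CSF3 acts through CSF3R and is best known for driving the production and release of neutrophils. CSF1 is typically made by stromal cells, CSF2 by activated T cells, and CSF3 by endothelium, stroma and epithelium under inflammatory stimuli.

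The series profiled seminal vesicles by droplet-based single-cell RNA sequencing. An aging pool held 10 C57BL/6J mice on chow, 2 each at 3 months, 20 months, 20 months with rapamycin, 28 months, and 28 months with rapamycin, where rapamycin had been given transiently. A diet pool held 8 FVB/NJ mice of 3 months, 2 each on a purified control, high fat or low protein diet given after weaning, or under caloric restriction, for which mice were housed singly and given less food than such mice eat freely, and 3 further FVB/NJ mice (control, high fat, low protein) were captured as single-mouse libraries. The remaining 2 libraries are labelled young (3 months) and old (18 months), FVB/NJ on the control diet. The condition of each pooled mouse was read from the name of its demultiplexed table, since the labels describe the pool only.

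After filtering, 40306 cells remained, 174 to 9160 per mouse, with a median of 1734.5 to 12547 UMIs per cell and 971402 to 46326504 UMIs in all per mouse. The classes held 1382 macrophages, 611 T cells, 1319 endothelial cells, 4008 fibroblasts, 6095 basal cells and 9321 secretory cells. A further 1011 cells passed more than 1 gate and were left out, and 10942 passed no gate. Pairs of mice shared 178 cell barcodes, none of them within a pool. The libraries labelled young and old go against their tissue label: the 7 Svs genes made up 0.000607% to 0.0011% of their UMIs, no cell was secretory, and the epididymis markers *Lcn8*, *Lcn9*, *Gpx5* and *Adam7* together reached 37257 to 65933 of every 1000000 UMIs, against at most 1.27 in every other mouse. They contributed 879 of the 1319 endothelial cells and 4159 of the 6095 basal cells, so means are also given without them. In the other 21 mice Svs genes took 7.87% to 64.0% of UMIs.

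The genes lie on autosomes, with positions on build GRCm38 as follows: *Csf1* at chr3:107741048-107760469, *Il34* at chr8:110741829-110805924 and *Csf2* at chr11:54247271-54249667 on the minus strand, *Csf3* at chr11:98701263-98703629 on the plus strand, *Csf3r* at chr4:126024550-126044440 on the plus strand, *Csf2ra* at chr19:61223957-61228429 on the minus strand and *Csf2rb* at chr15:78325752-78353847 on the plus strand. Beside *Csf2rb* lies *Csf2rb2* (chr15:78282507-78305721, minus strand), a closely related beta chain of the interleukin 3 receptor in mice. None of the 951 windows of 50 bases in the last 1000 bases of the *Csf2rb* transcript, the end that a 3′ assay would read, occurred in *Csf2rb2*, whereas 18.4% of such windows over its 4900-base length did.

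Since 3 receptor genes were highest in myeloid cells, the short purine-rich letters GAGGAAG, of the kind bound by the myeloid factor PU.1 (*Spi1*), were looked for from 250 bases before to 50 bases after each RefSeq start, on both strands (CTTCCTC on the other). RefSeq promoters of GRCm38.p6 were matched for *Csf1*, *Csf2*, *Csf2ra*, *Csf3r* and *Csf2rb2*. No promoter was at hand for *Csf1r*, *Csf2rb*, *Csf3* or *Il34*, so these were not searched. The letters were found in 3 of these 5 matched promoters, beside 13.6% of 32851 promoters in all. No enrichment is read from so few promoters. The 30 bases around the first match of each are shown 5′ to 3′ on the strand of the gene with the matched letters in capitals, because these are the receptor genes whose level in macrophages is described below.
Csf2ra (chr19:61228413-61228442, minus strand): acctgcagatGAGGAAGAGGAAGcgggaga
Csf3r (chr4:126024563-126024592, plus strand): tccttcctgaGAGGAAGgggctgtctatgt
Csf2rb2 (chr15:78305870-78305899, minus strand): tctgtgtctgCTTCCTCcagagaagtcagg
The *Csf2ra* window holds a pair of matches that share a base, beginning 14 and 8 bases before the start, the *Csf3r* match begins 86 bases before its RefSeq start, and those of *Csf2rb2* are on the other strand. The RefSeq start of *Csf3r* lies 109 bases downstream of the GENCODE start given above, so that this match is 23 bases inside the gene as GENCODE places it; for *Csf2ra* the RefSeq start lies 11 bases downstream. A match is a description of letters and not a bound site.

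The comparison of cell classes addresses which cells carry the messages of the ligands and which those of the receptors. Levels are UMIs per 1000000 UMIs of the class (CPM), summed per mouse where the mouse had at least 10 cells of that class, with mean ± SD over mice. In such units a class in which fewer cells carry a message and one in which each cell carries less of it cannot be told apart, and levels are compared for 1 gene across classes and not between genes. Differences were tested with the edgeR quasi-likelihood test on 126 mouse and class sums, each class against the mean of the other 5, with the mouse as a block and Benjamini-Hochberg adjustment over the 5200 genes that passed the low-count filter. *Csf1*, *Csf3*, *Csf1r*, *Csf2ra* and *Csf2rb* passed it, while *Csf2*, *Il34* and *Csf3r* did not and were tested only in a fit without the filter on 21638 genes.

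**Figure D1:**
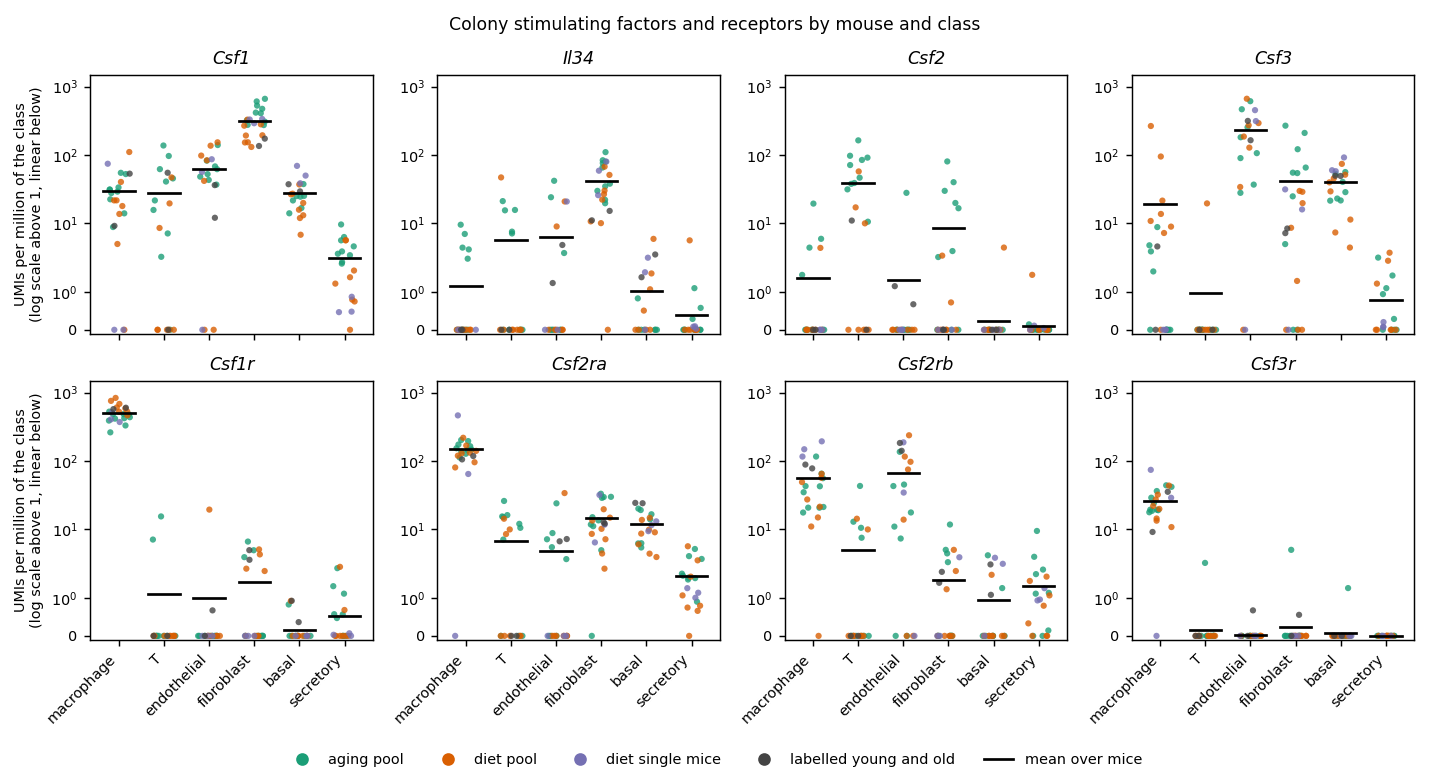
Level of each of the 8 genes in each class, 1 point per mouse with at least 10 cells, coloured by set of mice, with a bar at the mean; the vertical axis is CPM (linear below 1, logarithmic above). *Csf1r* separates macrophages (263 to 838) from all other classes, *Csf1* is highest in fibroblasts (131 to 662), and *Csf3* is highest and most variable in endothelial cells (0 to 664).

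Among the 6 classes *Csf1* was highest in fibroblasts. In fibroblasts its level was 315 ± 146 CPM (SD, n = 23 mice), with a lowest mouse of 131, a median of 291 and a highest of 662, and 330 without the libraries labelled young and old. Endothelial cells averaged 61.9 ± 45.4 (n = 20), macrophages 29.3 ± 26.4 (n = 23), T cells 28.0 ± 37.4 (n = 20), basal cells 27.4 ± 14.7 (n = 20) and secretory cells 3.105 ± 2.54 (n = 20). The lowest fibroblast value lay above every macrophage value (highest 111) and every basal value (highest 69.3), and overlapped only the highest endothelial and T cell mice (153 and 138). Against the other classes *Csf1* was higher in fibroblasts by 3.45 on the log2 scale (SE 0.159, edgeR quasi-likelihood adjusted p = 2.25e-39), and 3.40 to 3.98 over 12 alternative analyses. It was lower in secretory cells (log2 change -2.15, SE 0.26, edgeR adjusted p = 1.35e-12). In the order of levels, fibroblasts stood above endothelial cells (log2 difference 2.64, SE 0.267, edgeR adjusted p = 1.12e-15) and basal above secretory cells (1.33, SE 0.3, edgeR adjusted p = 4.67e-05), while the steps from endothelial cells to macrophages, T cells and basal cells did not pass the test. With plain library sizes in place of TMM factors the first of these did (log2 difference 1.09, edgeR adjusted p = 0.00498).

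Smooth muscle cells, gated by *Myh11* and *Acta2* among the cells of no class, formed a further source of *Csf1*. They held 125 ± 68.7 CPM (51.6 to 295, n = 15 mice) and were described and not tested. The fibroblast class also held smooth muscle RNA. Its smooth muscle and fibroblast markers summed to 2442 and 5660 CPM in the aging pool, pooled over cells. These sums were 6552.5 and 5864 for the diet pool and 1558 and 11129 for the single-mouse diet libraries. For the libraries labelled young and old they were 10133 and 7765. The part of smooth muscle RNA in the fibroblast levels of *Csf1* and *Il34* was not tested. Of 7416 *Csf1* UMIs in all kept cells, 2613 were in fibroblasts, 1126 in smooth muscle cells and 1948 in cells of no gate. The libraries labelled young and old held 4407 of the 4900 smooth muscle cells, and the one labelled young 483 of the UMIs. Without both libraries 175 of 4962 *Csf1* UMIs were in smooth muscle cells (125 ± 74.1 CPM, n = 13 mice), 1962 in fibroblasts and 1606 in cells of no gate.

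*Il34*, the second ligand of CSF1R, had few UMIs, 304 in fibroblasts and 864 of 1418 (60.9%) in cells that passed no gate. Without the libraries labelled young and old, fibroblasts held 246 of 626 UMIs (39.3%) and cells of no gate 280 (44.7%). Its fibroblast level was 42.1 ± 29.8 CPM (lowest 0, median 30.2, highest 110, n = 23), against 17.2 ± 23.2 in smooth muscle cells, 6.33 ± 11.5 in endothelial cells, 5.70 ± 11.7 in T cells and at most 1.23 in macrophages, basal and secretory cells. Fibroblasts of 22 of the 23 mice held *Il34*, while macrophages of 18 of 23 mice held none. In the fit without the low-count filter *Il34* was higher in fibroblasts by 4.03 on the log2 scale (edgeR adjusted p = 1.7e-40, with 20% of 21638 genes called higher there). Of the 240 fibroblasts with an *Il34* UMI, 104 also held *Csf1*, which was found in 1119 of 4008 fibroblasts.

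*Csf2* was rare, and among the 6 classes its level was highest in T cells. These held only 75 of its 258 UMIs (29.1%), beside 70 in cells of no gate and 64 in fibroblasts. T cells averaged 38.5 ± 44.3 CPM (n = 20), with 6 mice at 0, a median of 24.3 and a highest mouse of 164; every other class averaged below 9. In the fit without the low-count filter it was higher in T cells by 4.10 on the log2 scale (edgeR adjusted p = 1.37e-19, 10.9% of genes called higher). The 75 UMIs in T cells came from 44 of 611 cells. A few *Csf2* UMIs of the aging pool were in natural killer cells, gated by *Ncr1* and *Klrb1c* among the cells of no class. These held 4 UMIs in 3 of 27 cells, with 3 of the UMIs in the first 28-month mouse on chow. No mouse of that pool had 10 such cells. Their pooled level was 47.4 CPM, beside 57.7 in T cells of that pool (67 UMIs in 38 of 362 cells). With so few UMIs the levels of the 2 cell types are not compared. Natural killer cells of the diet pool held 1 UMI in 49 cells, and those of the libraries labelled young and old 0 in 85. T cells of the aging pool held 67.4 ± 44.3 CPM (10.6 to 164, n = 10) and those of the diet pool 10.6 ± 20 (0 to 57.5, n = 8), a difference that was not tested; natural killer markers in the same T cell sums had a median of 821 CPM (560.3 to 2948) in the aging pool and 2752 (1882 to 8194) in the diet pool, and their part in the difference was not tested.

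Fibroblasts also held *Csf2*, 64 UMIs in 14 of 4008 cells, or 8.62 ± 19.0 CPM with 14 of 23 mice at 0. A single cell of the first 28-month mouse on chow carried 32 of these UMIs and that mouse 36. The fit without the filter called *Csf2* higher in fibroblasts (log2 change 1.31, edgeR adjusted p = 0.000301), and without that mouse the mean of the other 22 was 5.35 ± 11.1.

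*Csf3* was carried by endothelial, basal and fibroblast cells in very different ways. Endothelial cells averaged 230 ± 197 CPM (n = 20), with 2 mice at 0, a median of 184 and a highest mouse of 664, and 229 without the libraries labelled young and old. The spread was wide in each set of mice: 28.0 to 611 in the aging pool, 0 to 664 in the diet pool and 0 to 452 in the single-mouse diet libraries, with 164 and 315 in the libraries labelled young and old. Basal cells averaged 40.8 ± 22.6 (4.43 to 92.0, n = 20) with no mouse at 0, and fibroblasts 41.6 ± 69.3 (0 to 268, n = 23). T cells (19 of 20 mice at 0) and secretory cells (0.774 ± 1.19) held almost none.

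*Csf3* was higher than in the other classes in endothelial cells by 4.44 on the log2 scale (SE 0.373, edgeR quasi-likelihood adjusted p = 3.4e-20) and in basal cells by 2.20 (SE 0.414, edgeR adjusted p = 2.06e-06), and lower in T cells (log2 change -5.44, SE 1.29, edgeR adjusted p = 0.000161), where the size depends on the fit because 19 of 20 sums were at 0. Endothelial cells stood above fibroblasts (log2 difference 2.74, SE 0.412, edgeR adjusted p = 7.05e-09), and fibroblasts and basal cells were not told apart (-0.87, SE 0.413, edgeR adjusted p = 0.0599). The fibroblast call (log2 change 1.15, SE 0.482, edgeR adjusted p = 0.0297) rested on 1 animal: the first 28-month mouse on chow held 120 of the 275 UMIs, and without it the change was 0.84 (edgeR adjusted p = 0.144).

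Endothelial cells with *Csf3* held more molecules each than basal cells with it. The 995 endothelial UMIs came from 148 of 1319 cells, 6.72 per positive cell and up to 55 in 1 cell. The 972 basal UMIs came from 531 of 6095 cells, at 1.83 per positive cell. The libraries labelled young and old held 111 of the positive endothelial cells and 605 of their UMIs, 5.45 per positive cell. Without them the endothelial UMIs were 390 in 37 of 440 cells, 10.54 per positive cell (272 in 19 cells, or 14.3, in the aging pool), and the basal UMIs 431 in 180 of 1936 cells, 2.39 per positive cell. In macrophages, 43 of 63 UMIs came from 2 diet pool mice, the first on caloric restriction (19) and the second on high fat (24, of which 21 lay in 1 cell). The gate for monocytes or neutrophils (*S100a8*, *S100a9*) held 40 cells in the library labelled young, with *Csf3* at 113 CPM (37 UMIs in 15 cells). These cells held no UMI of *Csf1r*, *Csf2rb* or *Csf3r*, so the gate does not establish their type. *Csf2* and *Csf3* were in the same cell in 1 endothelial cell, of 3 with *Csf2* and 148 with *Csf3*, and in 0 fibroblasts, of 14 and 59; with so few positive cells nothing is read from these counts.

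**Figure D2:**
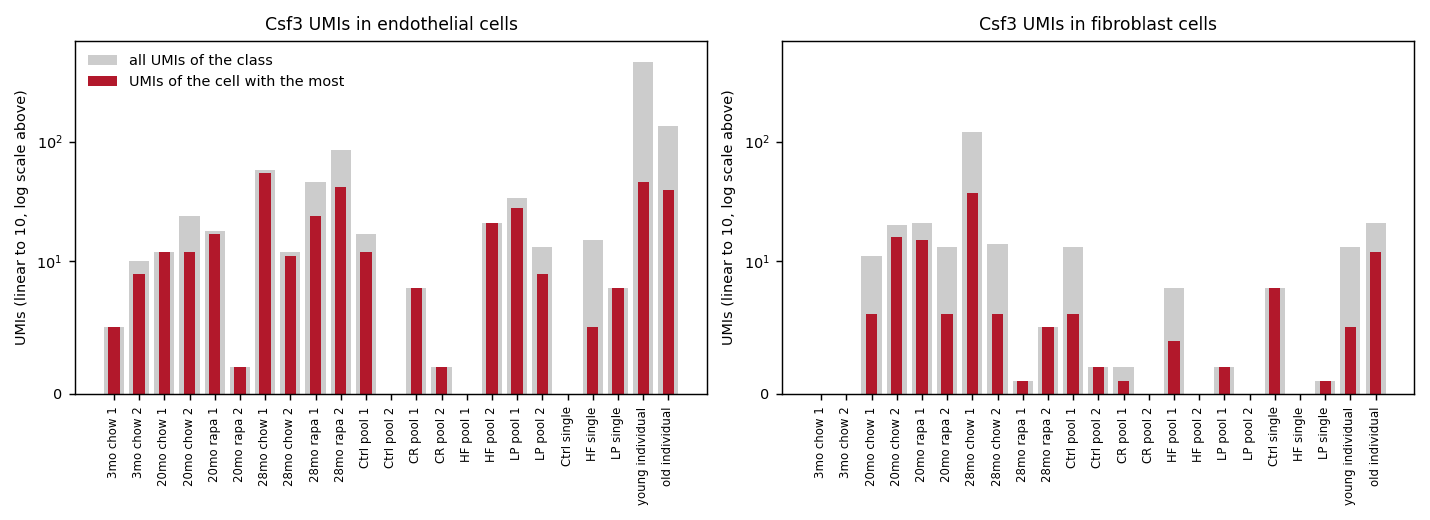
UMIs of *Csf3* in endothelial cells (left) and fibroblasts (right) of each of the 23 mice, on an axis linear to 10 and logarithmic above; grey bars are all UMIs of the class and red bars the UMIs of the single cell with the most. The first 28-month mouse on chow holds 120 of the fibroblast UMIs, 37 of them in 1 cell, and no endothelial cell held more than 55.

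On the receptor side, *Csf1r* (chr18:61100598-61132149, plus strand, overlapped on the other strand by *Hmgxb3*) was close to exclusive to macrophages. Macrophages held 509.6 ± 133 CPM (lowest 263, median 487, highest 838, n = 23 mice, 502 without the libraries labelled young and old), and the means of the other 5 classes were between 0.152 and 1.68. Each macrophage value was above the highest value of any other class, 19.5 in endothelial cells of a diet pool mouse. The difference was 9.15 on the log2 scale (SE 0.135, edgeR quasi-likelihood adjusted p = 1.31e-86), and 8.71 to 9.48 over 12 alternatives. Macrophages held 2440 *Csf1r* UMIs, 84.5% of those in all kept cells. At least 1 UMI was found in 1006 of 1382 macrophages (72.8%), with 2.43 UMIs per positive cell. *Csf1r* was called lower in basal (log2 change -3.13, SE 0.49, edgeR adjusted p = 9.84e-08) and endothelial cells (-2.95, SE 0.632, edgeR adjusted p = 7.5e-05). These calls compare values at or near 1 UMI per mouse: 16 of 20 basal sums and 18 of 20 endothelial sums were at 0.

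*Csf2ra*, the ligand-specific chain of the CSF2 receptor, was highest in macrophages and in dendritic cells. Macrophages held 148 ± 83.8 CPM (lowest 0, median 138, highest 466, n = 23); both extremes were single-mouse diet libraries, where 3 mice together had 46 macrophages. Within the aging pool the range was 113 to 203 and within the diet pool 80.7 to 219. Cells gated as dendritic by *Flt3*, *Xcr1*, *Clec9a* and *Cd209a* held 202 ± 31.4 (n = 4 mice, 156 cells in all). Macrophages exceeded the other classes by 4.31 on the log2 scale (SE 0.142, edgeR adjusted p = 1.49e-52), with 4.20 to 4.41 over 12 alternatives.

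Outside myeloid cells *Csf2ra* was low but widespread, at 14.6 ± 9.82 CPM in fibroblasts (22 of 23 mice above 0) and 12.1 ± 6.32 in basal cells (20 of 20 mice). It was called lower in endothelial cells (log2 change -1.96, SE 0.314, edgeR adjusted p = 3.17e-08), T cells (-1.04, SE 0.354, edgeR adjusted p = 0.0083) and secretory cells (-0.69, SE 0.22, edgeR adjusted p = 0.00303). Fibroblasts and basal cells were not told apart (log2 difference -0.05, SE 0.215, edgeR adjusted p = 0.863).

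*Csf2rb*, the shared beta chain, was highest in the dendritic gate, at 241 ± 86.3 CPM (158 to 330, n = 4 mice), which was described and not tested. Among the 6 tested classes it was highest in endothelial cells and macrophages. Endothelial cells held 67.5 ± 75.4 CPM (lowest 0, median 38.9, highest 238, n = 20 mice) and macrophages 57.1 ± 48.4 (lowest 0, median 43.0, highest 194, n = 23), and these classes were not told apart (log2 difference -0.32, SE 0.307, edgeR adjusted p = 0.389). The remaining 4 tested classes averaged 0.948 to 4.94. Both were called above the others, macrophages by 3.47 (SE 0.262, edgeR adjusted p = 3.28e-23) and endothelial cells by 3.09 on the log2 scale (SE 0.28, edgeR adjusted p = 2.61e-18).

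The endothelial level varied with the set of mice. The libraries labelled young and old gave 163 ± 30.1 CPM, the diet pool 77.4 ± 85.5, the single-mouse diet libraries 74.2 ± 100 and the aging pool 32.7 ± 45.6 (n = 2, 7, 3 and 8), and without the first set the mean over mice was 57. The library labelled young held 274 of the 473 endothelial UMIs. In the aging pool the first 28-month mouse on chow stood at 137 (17 UMIs in 11 cells), and the other 7 mice averaged 17.8 ± 19.1. Lymphatic endothelial markers (*Prox1*, *Flt4*, *Mmrn1*) in the same endothelial sums ran from 281 to 4553 CPM in the aging pool, 153 to 1325 in the diet pool and 177 to 219 in the libraries labelled young and old, and their part in the *Csf2rb* level was not tested. Without the libraries labelled young and old, the endothelial difference was 2.80 (edgeR adjusted p = 2.29e-12). Macrophage levels of *Csf2rb* varied with the set as well. They were 153 ± 39.2 CPM in the single-mouse diet libraries (9 UMIs in 46 cells, highest mouse 194) and 83.5 ± 7.56 in the libraries labelled young and old. The aging pool held 44.0 ± 30.2 and the diet pool 30.8 ± 23.6.

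*Csf2rb2* followed *Csf2rb*, with 42.7 ± 51.6 CPM in endothelial cells, 16.6 ± 15.6 in macrophages, 51.8 ± 12.2 in the dendritic gate and at most 7.37 in the other classes and gates with at least 10 cells in a mouse. For the 2 chains of the CSF2 receptor, of 86 dendritic cells with *Csf2ra*, 50 held *Csf2rb*, beside 84 of all 156 dendritic cells. Of 477 macrophages with *Csf2ra*, 63 held *Csf2rb*, beside 160 of all 1382. Of 284 endothelial cells with *Csf2rb*, 6 held *Csf2ra*, beside 23 of all 1319. The libraries labelled young and old gave 247 of these 284 cells. These are counts of cells at differing depths and were not tested.

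*Csf3r* was the rarest receptor, with 121 UMIs in 108 of 1382 macrophages, or 79.1% of its UMIs in all kept cells. Macrophages held 26.2 ± 15.5 CPM (lowest 0, median 22.1, highest 74.5, n = 23; 22 mice above 0), and the means of the other classes were at most 0.243. In the fit without the filter it was higher in macrophages by 6.20 on the log2 scale (edgeR adjusted p = 1.29e-53, with 16.7% of genes called higher). Of the 108 positive macrophages, 88 also held *Csf1r*. No UMI was found in 9321 secretory cells, where a bound of 3 cells would be a share of 0.0322% with a UMI. Cells that passed the gate for monocytes or neutrophils were few, at 44 in all. The 40 of them in the library labelled young, whose type the gate does not establish, held no *Csf3r*, *Csf1r* or *Csf2rb*. Of the 3 in the aging pool, 2 held *Csf3r* (3 UMIs). Of 3 neutrophil markers, *Ly6g* and *Retnlg* were at 0 in the macrophages and *Mmp8* had 11 UMIs (2.27 CPM) in 3 of 23 mice, and the 5 monocyte or neutrophil markers summed to 43.7 CPM (0 to 223 per mouse), of which *Plac8* made up 41.0. Their part in the *Csf3r* level was not tested.

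**Figure D3:**
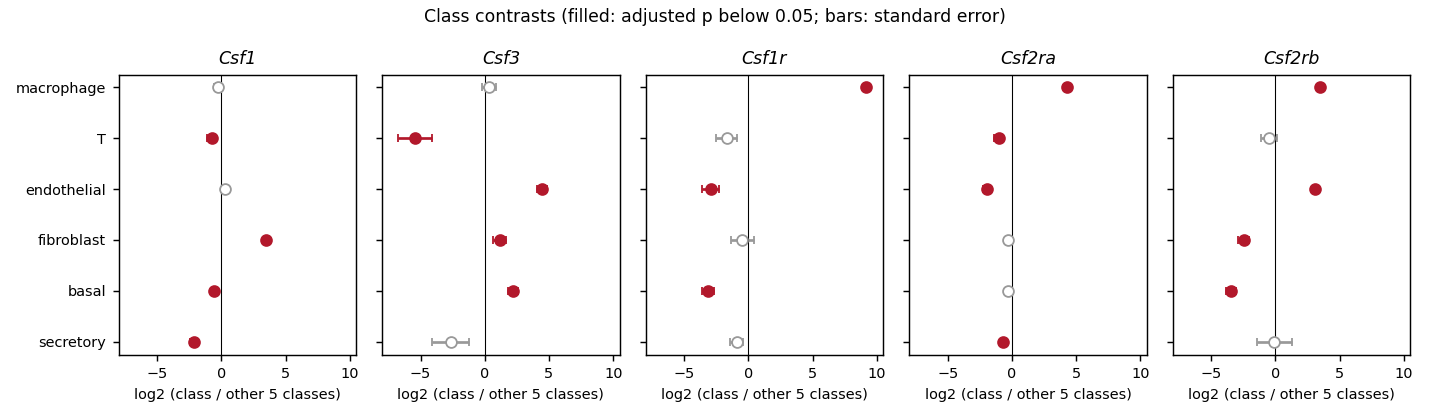
Log2 difference of each class from the mean of the other 5 for the 5 genes of the filtered fit, with bars of 1 standard error; filled points have an edgeR adjusted p below 0.05. *Csf1r* reaches 9.15 in macrophages, *Csf3* 4.44 in endothelial cells and *Csf1* 3.45 in fibroblasts.

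The count of calls has to be read against how often any gene was called. In macrophages 3 of the 5 tested genes were higher (31% of all 5200 genes were) and 0 lower (39.7%). In T cells 0 were higher (25.9%) and 3 lower (33%), in endothelial cells 2 higher (31.6%) and 2 lower (36.7%), in fibroblasts 2 higher (32.8%) and 1 lower (32.5%), in basal cells 1 higher (33.9%) and 3 lower (29.8%), and in secretory cells 0 higher (36.3%) and 2 lower (45.9%). The numbers of calls were thus near the background, and the size of the differences is the measurement that sets the genes out. With plain library sizes in place of TMM factors, many more genes were called higher in T cells (2693 higher and 597 lower, against 1345 and 1717), endothelial cells (3220 and 482, against 1642 and 1907), fibroblasts (3380 and 550, against 1706 and 1691) and basal cells (3464 and 805, against 1761 and 1547), and far fewer in secretory cells (132 and 4927, against 1889 and 2389), where Svs RNA fills much of each library. In macrophages the split was 1639 and 1948, against 1611 and 2066.

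Of the 25 pairs of neighbouring classes in the orders of the 5 tested genes, 13 differed in the main analysis. The pairs were ordered by the same levels, and the share of all genes that differed in them is not given here. Nothing is read from this count. The order among the lowest classes depended on the scaling: *Csf1r* in secretory against basal cells was 1.85 with TMM and -0.10 with plain library sizes on the log2 scale, *Csf2ra* in endothelial against secretory cells was -1.06 and 1.56, and *Csf2rb* in fibroblasts against secretory cells was -1.99 and 0.38. No order is read among those classes.

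Shares of cells were taken after thinning each cell to 1000 UMIs, with exact binomial intervals of 95% that cover counting error only. They are pooled over cells, so each is also given within the aging pool and the diet pool beside secretory cells of the same pool, which should lack the immune receptors. Secretory cells were deeper than macrophages before thinning (median over mice 23807 UMIs per cell against 3242). Of the 9321 secretory cells, 8412 were from the single-mouse diet libraries and none from the libraries labelled young and old, which have no such level.

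*Csf1r* was found in 38.4% of all macrophages (35.8 to 41.0; 72.8% before thinning). In the aging pool it was in 33.3% of macrophages (29.9 to 36.8) and 0.182% of secretory cells (0.0046 to 1.01, and 2.36% before thinning). In the diet pool it was in 46.8% of macrophages (41.5 to 52.1) and 0 of 359 secretory cells (0 to 1.02). *Csf2ra* was in 11.8% of all macrophages (10.1 to 13.6; 34.5% before thinning), at 11.8% and 10.9% in the aging and diet pools, against 0.545% and 0.279% of their secretory cells. *Csf3r* was in 2.49% of all macrophages (1.73 to 3.47; 7.81% before thinning). It was in 3.03% of aging pool macrophages (1.93 to 4.51) and 0 of 550 secretory cells. That count of 0 was bounded by 3 cells, or 0.545%, which is narrower than an exact interval. In the diet pool it was in 1.68% of macrophages (0.619 to 3.62), an interval that overlapped that of the secretory cells (0 to 1.02).

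The pooled share of *Csf2rb* depended on which mice the cells came from. It was 12.9% of all endothelial cells (11.1 to 15.0; 21.5% before thinning) and 4.55% of all macrophages (11.6% before thinning), and without the libraries labelled young and old 4.90% (2.97 to 7.54) and 3.79% (2.77 to 5.05), with intervals that overlapped. In the aging pool it was 2.30% of endothelial cells (0.63 to 5.78), 3.95% of macrophages (2.68 to 5.59) and 0.182% of secretory cells (0.0046 to 1.01). In the diet pool it was 6.92% (3.50 to 12.0), 2.52% (1.16 to 4.73) and 0.279% (0.00705 to 1.54). The endothelial interval of the aging pool and the macrophage interval of the diet pool overlapped those of the secretory cells.

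For the ligands, *Csf1* was in 15.6% of all fibroblasts (14.5 to 16.8; 27.9% before thinning), at 26.8% and 14.0% in the aging and diet pools, against 0.727% and 0.836% of their secretory cells. *Il34* was in 2.18% of all fibroblasts (1.74 to 2.70; 5.99% before thinning), at 6.92% in the aging pool, 2.01% in the diet pool and 0.824% in the libraries labelled young and old. *Csf2* was in 3.99% of all T cells (2.55 to 5.93; 7.20% before thinning), which was 20 of 360 cells in the aging pool and 2 of 157 in the diet pool. *Csf3* was in 8.60% of all endothelial cells (7.06 to 10.4; 11.2% before thinning), at 6.90% and 6.29% in the aging and diet pools, and in 4.22% of all basal cells (8.71% before thinning), at 3.85% and 3.11%, against 0.364% and 0% of their secretory cells. A cell without a UMI at this depth is not shown to lack the message.

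**Figure D4:**
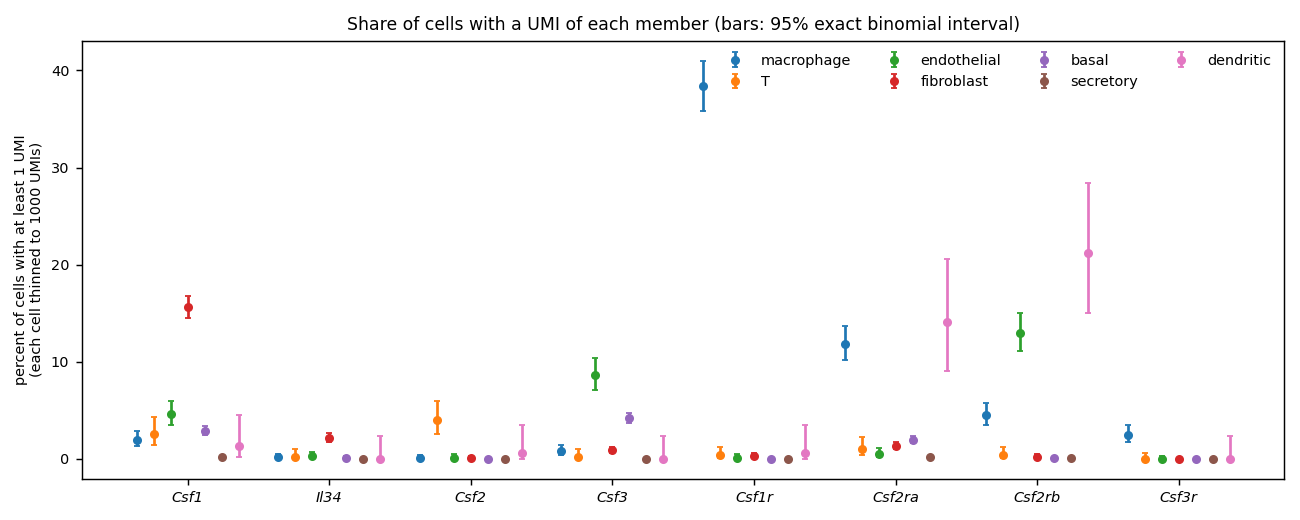
Percent of cells with at least 1 UMI of each gene after thinning every cell to 1000 UMIs, by class and pooled over all mice, with exact 95% binomial intervals over cells. The interval of *Csf1r* in macrophages (35.8 to 41.0%) lies above all other values plotted.

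Other genes of these pathways were taken from a list of 30, of which 19 could be tested. Their counts stand beside the shares of all 5200 genes called. These were 31% higher and 39.7% lower in macrophages, 31.6% and 36.7% in endothelial cells, and 25.9% and 33% in T cells. No enrichment is read from the counts. In macrophages 14 were higher and 3 lower (median log2 change 1.31), the higher ones including transcription factors that build the myeloid programme, *Spi1* (PU.1, 7.67), *Cebpa* (3.62) and *Irf8* (3.00), with the lipid phosphatase *Inpp5d* (SHIP1, 4.13) and the sheddase *Adam17* (2.94). *Sdc1* (syndecan 1, -1.78), *Cish* (-1.69) and *Stat5a* (-0.84) were lower there by the same edgeR test. Endothelial cells had 9 higher and 2 lower (median 0.40), with *Kitl*, the ligand of KIT, at 3.33, the kinase *Fyn* at 2.45 and the feedback inhibitor *Socs3* at 2.15. T cells had 7 higher and 5 lower (median 0.31), led by *Inpp5d* (3.01), *Fyn* (2.50) and the STAT5-induced inhibitor *Cish* (1.52).

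Fibroblasts had 6 higher and 8 lower (median -0.29), with *Cebpb* (1.68) and *Socs3* (1.15) the highest. Basal cells had 4 higher and 12 lower (median -0.96), with *Sdc1*, an epithelial heparan sulphate proteoglycan, at 3.1. Secretory cells had 1 higher (*Stat5a*, 1.28) and 16 lower (median -1.93). Of all 5200 genes, 32.8% were called higher and 32.5% lower in fibroblasts. These shares were 33.9% and 29.8% in basal cells and 36.3% and 45.9% in secretory cells. The median of the 5 tested ligand and receptor genes was 3.47 in macrophages and between -1.04 and 0.29 in the other classes. It covers only the genes that passed the low-count filter, *Csf1*, *Csf3*, *Csf1r*, *Csf2ra* and *Csf2rb*. The median depends on that mix of ligand and receptor genes, and no difference between classes is read from it.

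The genes whose levels over the 126 sums were most like each of the 8 were sought among 13048 genes, as Pearson correlations of log2(CPM + 1); the sums share mice, libraries and depth, so these are descriptions. *Csf1r* was most like the macrophage surface receptor *Adgre1* (r = 0.963), *C3ar1* (0.957) and *Ms4a7* (0.956), and *Csf3r* most like the scavenger receptor *Msr1* (0.952), *Adgre1* (0.948) and *Lair1* (0.945). *Csf2ra* was nearest to *Tlr2* (0.824), *Gm6377* (0.789) and *Rab7b* (0.787), and *Csf2rb* to *Csf2rb2* (0.720), *Ptafr* (0.698) and *Mef2c* (0.672). Among the ligands, *Csf1* was nearest to *Mxra7* (0.777), *Pkd2* (0.770) and *Gas6* (0.763), *Il34* to the fibroblast gene *Pi16* (0.775), *Islr* (0.774) and *Adamts8* (0.770), *Csf3* to *Schip1* (0.738), *Bvht* (0.732) and *Sema6a* (0.709), and *Csf2* to *Actn2* (0.690), *Ms4a4b* (0.674) and the lymphocyte gene *Gimap7* (0.670).

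The conditions of the study were compared in macrophages and fibroblasts, the classes with at least 10 cells in every mouse. The aging pool was first set against the diet pool. In macrophages *Csf1r* was lower in the aging pool, at 425 ± 80.0 CPM (lowest 263, median 431, highest 528, n = 10) against 625 ± 127 (lowest 467, median 598, highest 838, n = 8); 6 of the 10 aging pool mice lay below every diet pool mouse. The log2 difference was -0.54 (SE 0.142, edgeR quasi-likelihood adjusted p = 0.0124, 12.5% of 2586 genes called in either direction). *Csf2ra* was 156 ± 28.7 and 136 ± 43.0 in the same macrophages, and did not pass the test (log2 difference 0.19, SE 0.174, edgeR adjusted p = 0.529).

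In fibroblasts both ligands of CSF1R were higher in the aging pool. *Csf1* was 427 ± 138 CPM (lowest 274, median 412, highest 662) against 213 ± 71.4 (lowest 131, median 193, highest 329), with 6 of 10 aging pool mice above every diet pool mouse. The log2 difference was 1.05 (SE 0.203, edgeR adjusted p = 0.000581, 26.8% of 3680 genes called). *Il34* was 56.0 ± 31.0 (19.7 to 110) against 27.3 ± 22.5 (0 to 67.5), with ranges that overlapped and a log2 difference of 1.22 (SE 0.396, edgeR adjusted p = 0.0251).

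Strain, flow cell, base diet (chow or purified diets), rapamycin in 4 aging pool mice and, for 8 of the 10 aging pool mice, age differ between the pools and cannot be told apart. With the 2 mice of 3 months alone from the aging pool, none of the 3 genes passed: *Csf1r* -0.52 (edgeR adjusted p = 0.576), *Csf1* 0.77 (edgeR adjusted p = 0.13) and *Il34* 1.76 (edgeR adjusted p = 0.0718). Smooth muscle markers summed to a median of 2005 CPM in fibroblasts of the aging pool (204 to 12475) and 6079 in those of the diet pool (2350 to 10724), and their part in the fibroblast differences was not tested. Without the low-count filter, *Csf3* (log2 difference 3.22, edgeR adjusted p = 0.00171) and *Csf2* (4.68, edgeR adjusted p = 0.000148) were also called higher in fibroblasts of the aging pool. The calls were on 205 against 27 and 62 against 2 UMIs. The first 28-month mouse on chow held 120 of the 205 *Csf3* UMIs and 36 of the 62 *Csf2* UMIs, with 32 of the latter in 1 cell. These 2 calls were not repeated without it. Of the other pathway genes, *Irf8* (log2 difference 0.57, edgeR adjusted p = 0.042) and *Cebpb* (-1.18, edgeR adjusted p = 2.38e-05) differed in macrophages among 14 tested, and *Fyn* (0.76, edgeR adjusted p = 0.0163) in fibroblasts among 9 tested.

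**Figure D5:**
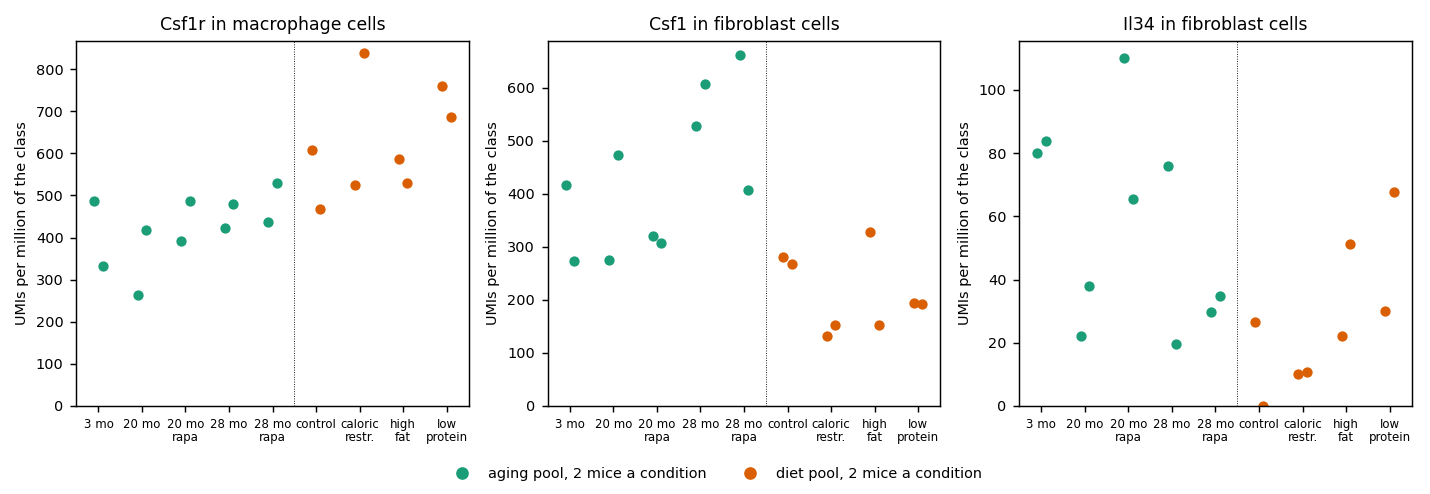
Levels of *Csf1r* in macrophages and of *Csf1* and *Il34* in fibroblasts by condition, 1 point per mouse and 2 mice per condition, in CPM. Macrophage *Csf1r* runs from 263 to 528 in the aging pool and 467 to 838 in the diet pool, with mice of 1 condition often as far apart as mice of different conditions.

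Within the aging pool no gene passed the test for a slope on age in either class (edgeR quasi-likelihood, 0% of 1628 genes in macrophages and 0% of 1802 in fibroblasts; 231 and 183 genes had an unadjusted p below 0.05, and DESeq2 called 28 and 33). *Csf1r* in macrophages was 486 and 332 CPM at 3 months, 263 and 417 at 20 months, 391 and 487 at 20 months with rapamycin, 424 and 480 at 28 months and 438 and 528 at 28 months with rapamycin, and its slope was -0.0011 on the log2 scale per month (SE 0.0101, edgeR adjusted p = 0.981). Mice of the same age differed as much as ages did. *Csf2ra* had a slope of -0.01 (SE 0.0113, edgeR adjusted p = 0.878).

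*Csf1* in fibroblasts was 416 and 274 at 3 months, 276 and 473 at 20 months, 320 and 307 at 20 months with rapamycin, 527 and 607 at 28 months and 662 and 408 at 28 months with rapamycin. At 28 months 3 of 4 values lie above both 3-month values. The slope of 0.03 per month (SE 0.012) did not pass the test (edgeR quasi-likelihood adjusted p = 0.348). *Csf3* in fibroblasts was below the filter on low counts. It was 0 in both mice of 3 months, 121 and 54.4 at 20 months, 210 and 65.5 at 20 months with rapamycin, 268 and 55.1 at 28 months and 4.98 and 24.8 at 28 months with rapamycin, from 205 UMIs in 33 of 479 cells. In the fit without the filter its slope was 0.15 per month (edgeR adjusted p = 2.3e-09); the 3-month fibroblasts of the diet pool averaged 11.1 ± 13.2. *Csf2rb* in macrophages, likewise below the filter, was 42.8 and 17.7 at 3 months, 43.0 and 21.3 at 20 months, 20.8 and 20.8 at 20 months with rapamycin, 117 and 65.4 at 28 months and 35.0 and 56.2 at 28 months with rapamycin (slope 0.07, edgeR adjusted p = 0.0463 without the filter). The first 28-month mouse on chow held 120 of the 205 *Csf3* UMIs and 66 of the 164 *Csf2rb* UMIs. Neither slope of the fit without the filter was repeated without this mouse.

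Among the 4 diets of the diet pool, none of the tested ones among the 8 genes, 3 in each class, passed (edgeR quasi-likelihood, any difference; 0% of 2494 genes called in macrophages and 0.129% of 5426 in fibroblasts, with 139 and 448 genes at an unadjusted p below 0.05). Fibroblast *Csf1* was 281 and 268 CPM on control, 131 and 152 on caloric restriction, 329 and 153 on high fat and 194 and 192 on low protein diet. Both caloric restriction mice were below both control mice, with a log2 difference of -0.94 and an unadjusted p over the diets of 0.0401 (edgeR adjusted p = 0.584). *Il34* in fibroblasts was 26.7 and 0 on control, 10.1 and 10.7 on caloric restriction, 22.2 and 51.1 on high fat and 30.2 and 67.5 on low protein diet (edgeR adjusted p = 0.438, and 0.00948 without the filter on low counts). *Csf3* in fibroblasts was 28.9 and 29.8 on control, 1.44 and 0 on caloric restriction, 19.8 and 0 on high fat and 8.62 and 0 on low protein diet, from 27 UMIs in all (edgeR adjusted p = 0.434, and 0.000843 without the filter). Macrophage *Csf1r* was 608 and 467 on control, 525 and 838 on caloric restriction, 587 and 530 on high fat and 759 and 685 on low protein diet (edgeR adjusted p = 0.946), with mice of a diet as far apart as diets were.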

How the data were processed

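Droplet-based single-cell RNA sequencing of seminal vesicles gave 1 matrix of UMI counts per mouse for 23 mice. The deposited counts are raw; the file headers name Cell Ranger 3.1.0 (5 matrices) and 6.0.1 (18 matrices), and the submitters' processing notes name Seurat and mm10. Pools had been demultiplexed by the authors with tag oligonucleotides; 12 tag rows were left out. The 30406 gene identifiers shared by all matrices were used (597 with another symbol in some), which dropped 0.0114% to 0.433% of UMIs per mouse. No columns of other series were present.

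Barcodes were kept (40306 of 53352) if they held 500 or more genes, 200 or more UMIs and no more than 10% of UMIs from mitochondria. Gates were 1 UMI of *Cd3e*, 2 of *C1qa*, 2 of *Pecam1*, 3 of *Col1a1* plus *Col1a2*, 3 of *Krt5* plus *Krt14*, or 20% Svs UMIs; cells that passed more than 1 gate were left out and no doublet caller was run. Raw counts were summed per mouse and class with at least 10 cells and tested with edgeR 4.0.16 in R 4.3.3 (filterByExpr, TMM, glmQLFit and glmQLFTest, Benjamini-Hochberg adjustment, threshold 0.05), with the mouse as a block for classes, age and rapamycin as terms within the aging pool, and diet within the diet pool. DESeq2 1.42.0 was an alternative. On simulated data with 200 genes changed by 2 on the log2 scale, 100% were recovered in the macrophage contrast on 5200 genes (6.54% of calls false), 100% between pools on 2586 genes (5.21%), 99% for age on 1628 genes (7.48%) and 88% for diet on 2494 genes (3.30%). Sums and figures used Python 3.11.15, numpy 2.4.6, pandas 2.3.3, scipy 1.17.1 and matplotlib 3.10.9. Positions are from GENCODE on GRCm38.

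The genes named are the 8 members, a list of 30 pathway genes, the 3 genes with the highest correlation to each member, and class markers; some genes of the pathway list are counted but not reported here by name. The members and lists were chosen with earlier results of these data known.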

Additional observations from a re-analysis of the deposited data

Results flagged for a closer look

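Within sets of 4 to 10 mice, a mouse that stood apart from the others was sought by Dixon's criterion at the 95% level. In all, 25 groups with at least 10 UMIs were examined, where chance gives about 1 in 20 groups. The 4 values listed all lie in the aging pool, and the list is not complete. *Csf1* in endothelial cells of the second 20-month mouse with rapamycin was 140 CPM (UMIs per 1000000 UMIs of the class; 10 UMIs in 15 cells), against at most 82.6 in the other 7 mice of the aging pool. The secretory markers in these cells summed to 97.9 CPM, against 0 to 21.6 in the other mice, and their part in the value was not tested.

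The other 3 listed values belong to the first 28-month mouse on chow. *Csf2* in its fibroblasts was 80.5 CPM (36 UMIs, 32 of them in 1 of 73 cells), against at most 40.0 in the other 9 mice; monocyte or neutrophil markers summed to 447 there and 3.22 to 363 in the others. *Csf2rb* in its endothelial cells was 137 (17 UMIs in 11 cells), against at most 45.4 in the other 7 mice; dendritic markers in these cells summed to 137, against 7.38 to 17.7, and lymphatic endothelial markers to 281, against 2223 to 4553. *Csf2rb* in its macrophages was 117 (66 UMIs in 113 cells), against at most 65.4 in the other 9 mice; dendritic markers were 86.5 there, within the range of the others (57.3 to 229), and macrophage markers 8687, against 5360 to 7204. The part of these markers in the values was not tested. Without this mouse the mean *Csf2rb* level over the other mice was 63.9 ± 75.6 in endothelial cells (n = 19) and 54.4 ± 47.8 in macrophages (n = 22).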

How the results depend on the processing

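For the 5 filtered genes, the class differences of *Csf1* in fibroblasts, *Csf1r* and *Csf2ra* in macrophages, *Csf2rb* in macrophages and endothelial cells and *Csf3* in endothelial and basal cells kept their direction and call over all 12 alternatives. Without the low-count filter (21638 genes) the class contrasts called 6925 genes in macrophages, 5331 in T cells, 6214 in endothelial cells, 7509 in fibroblasts, 6982 in basal and 9769 in secretory cells, against 3677, 3062, 3549, 3397, 3308 and 4278. With plain library sizes the neighbour differences of *Csf1r* (secretory minus basal, 1.85), *Csf2ra* (endothelial minus secretory, -1.06) and *Csf2rb* (fibroblast minus secretory, -1.99) became -0.10, 1.56 and 0.38.

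For age, main counts of 0 in both classes became 28 in macrophages and 33 in fibroblasts with DESeq2, 108 and 120 without the filter, 2 and 1 with gates at 1 UMI, 3 in macrophages at 200 genes per cell, and 0 to 50 and 0 to 1 leaving out each mouse (50 without the second 3-month mouse). For diet, 0 calls in macrophages became 103 without the filter and 0 to 44 leaving out each mouse, and 7 in fibroblasts became 25 with DESeq2, 94 with gates at 1 UMI, 286 without the filter, 13 with the replicate block and 8 to 40 leaving out each mouse. Between pools, 323 and 988 calls became 44 and 336 with 3-month mice only, and 1618 in fibroblasts with gates at 1 UMI. The mouse numbers gave correlations of deviations between -0.131 and 0.193 and did not pair the mice; the replicate block changed no call of the 8 genes. The cause of these changes was not tested.

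Thinned to 2000 UMIs, the shares were 26.5% (*Csf1*), 7.18% (*Csf2*), 4.91% (*Il34*), 59.7% (*Csf1r*), 22.4% (*Csf2ra*), 19.8% (*Csf2rb*) and 4.36% (*Csf3r*), higher by the construction of a deeper cell. Depth limits each of these shares. Calls for *Csf1* in basal and T cells, *Csf2ra* in T cells and for *Csf3* in fibroblasts were lost in some alternatives.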
